A study of Mus musculus with 7 samples.

Results

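Cholesterol cannot enter the brain from the blood in useful amounts, so oligodendrocytes make much of what their myelin membranes need. Synthesis starts from acetyl-CoA and passes through mevalonate, isoprenoid units, squalene and lanosterol before the last sterol steps give cholesterol. The transcription factors SREBP1 and SREBP2 switch the enzyme genes on when their escort SCAP carries them to the Golgi, and INSIG proteins hold SCAP back when sterols are plentiful. Cholesterol taken up with lipoproteins leaves the lysosome through NPC2 and NPC1, and spare cholesterol is esterified for storage.

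The 33 genes described here were chosen by name as genes of this pathway, and all 33 were among the 27998 genes of the count table. They comprised 18 synthesis enzymes, 7 regulators and 8 genes of uptake, transport and storage. Their levels were read in sorted SOX10+ oligodendrocyte lineage cells (OLCs) of adult mice at postnatal day 90 (P90), with droplet-based single-cell RNA sequencing of transcript 3′ ends. Each of 3 conditions was 1 library. Control dOLCs were the tdTom+ cells, and control vOLCs the GFP+ cells, of Emx1-Cre:Sox10-GFP-tdTom mice. Ectopic vOLCs were the GFP+ cells of mice that carried the Sox10-GFP-DTA allele beside Emx1-Cre:Sox10-GFP-tdTom. In these animals the same Cre also switches on diphtheria toxin A, which kills OLCs of dorsal origin, and the GFP+ cells that remain are taken to be of ventral origin. All 3 libraries therefore carried Emx1-Cre and a Sox10-driven reporter, Emx1-Cre acting in the dorsal forebrain and the Sox10 sequences in the oligodendrocyte lineage. The mice were of a mixed C57BL/6-B6CBA background and of both sexes, and the tissue is labelled motor and cingulate cortex. The study used 4 control and 2 ablated mice, and the files do not tell the mice of a library apart. Since a condition had only 1 library, conditions were compared without a test, and every interval covers counting error only.

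The 3 libraries held 5804, 925 and 2562 kept cells, in the order control dOLCs, control vOLCs and ectopic vOLCs, which is used throughout. They gave 23078181, 4846391 and 14293675 UMIs (counted transcript molecules), with medians of 3490, 5022 and 5319 per cell. Of 9252 distinct cell barcodes, 39 occurred in more than 1 library. Clusters were taken from the annotation of the authors and run from oligodendrocyte precursor cells (OPCs) through committed precursors, newly formed and early myelin-forming cells (COP/NFOL/MFOLa) and MFOLb to the mature types MOL1, MOL2a, MOL2b and MOL5/6a to MOL5/6d. Levels are UMIs summed over the cells of a cluster and library and scaled to 1000000 UMIs of that sum (CPM). Pdgfra, which marks OPCs, lay at 1450, 2174 and 1363 CPM in OPCs and at 16.0 at most in MOL5/6. Klk6, a marker of MOL2, lay at 426, 1395 and 725 in MOL2 and at 56.2 at most in MOL5/6. Because 3′ ends were counted, levels are compared for the same gene or the same sum between cells, and not between genes.

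The summed level of the 18 enzymes was lower in OPCs than in the differentiating and mature cells, and its means over the libraries were highest in COP/NFOL/MFOLa and in MOL2a. In control vOLCs MFOLb had the highest value, 2090 CPM, on only 8 cells. MFOLb also carried astrocyte markers in every library, with Gja1 at 254, 406 and 195 CPM, against 2.76 at most in MOL5/6, and Slc1a2 at 1217, 1412 and 978, and their part in the enzyme level was not tested. In OPCs the enzyme sum was 895, 892 and 903 CPM. In COP/NFOL/MFOLa cells it was 2159, 1767 and 2524, although only 76, 13 and 22 cells were available. The log2 ratio of these cells to OPCs was 1.27 (1.17 to 1.38), 0.99 (0.70 to 1.26) and 1.48 (1.31 to 1.65), with 95% counting intervals in parentheses. MOL5/6, the most numerous mature class with 3777, 561 and 1842 cells, stood between OPCs and COP/NFOL/MFOLa at 1292, 1352 and 1513. The OPC values of the 3 libraries overlapped in their intervals, and in every library the other clusters printed here lay above them.

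**Figure D1:**
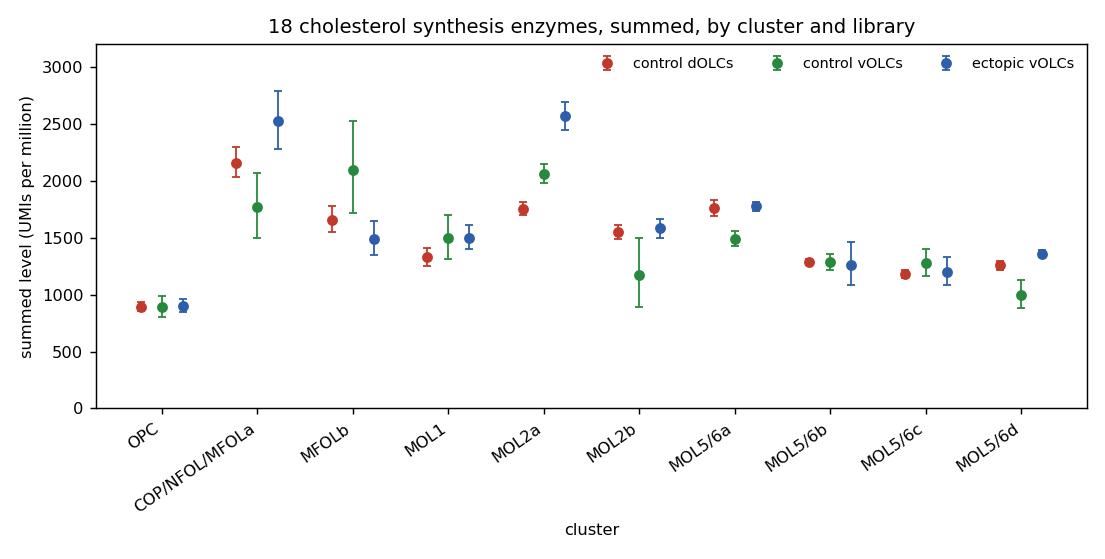
Summed level of the 18 synthesis enzymes (vertical axis, CPM) in 10 clusters, with 1 point per library and bars for the 95% counting interval. OPCs sit near 900 in all 3 libraries, and MOL2a rises from 1752 in control dOLCs to 2565 in ectopic vOLCs.

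Between OPCs and COP/NFOL/MFOLa cells, 8 of the 17 enzymes that passed the filter on low counts were over 1.5-fold higher in all 3 libraries and none was over 1.5-fold lower. Of all 7466 genes that passed, 7.54% were higher by this rule and 22.1% lower. Without the fold, 15 of the 17 were higher in all 3 libraries, against 16.2% of all genes. The filter asked for 50 UMIs in the compared sums together and a UMI in 10% of the cells of one of them. Lss and Hsd17b7, both among the 15, passed it only through COP/NFOL/MFOLa, where they were higher, so the filter favoured that direction for them. The clusters were themselves built from these counts, so contrasts between clusters are descriptions with no test. Cyp51, the lanosterol demethylase, lay at 45.7, 48.1 and 40.8 CPM in OPCs and at 211, 115 and 261 in COP/NFOL/MFOLa. Hmgcs1, which makes HMG-CoA at the head of the mevalonate branch, went from 90.7, 81.1 and 68.2 to 373, 149 and 569. The lowest Hmgcs1 value among the young cells, in control vOLCs, still exceeded every OPC value. Srebf1, which encodes SREBP1, had the opposite order. Its level was 95.2, 127 and 78.2 in OPCs and 40.1, 34.4 and 53.6 in COP/NFOL/MFOLa, and the 2 sets of values did not overlap.

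From OPCs to MOL5/6 the 3 libraries gave a mean log2 ratio of the summed enzymes of 0.62 ± 0.11 (SD over 3 libraries), with 0.53 (0.47 to 0.59), 0.60 (0.44 to 0.76) and 0.74 (0.66 to 0.83). This stood against a median of -0.47 over the 7139 genes that passed the filter. Of the enzymes, 7 of 15 that passed were over 1.5-fold higher in all 3 libraries and none lower, where 11.7% of all genes were higher and 37.2% lower. Scaling decides where zero lies in this contrast. With edgeR's TMM factors every ratio moved up by 0.67, the summed enzymes to 1.29.

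The enzymes did not move as one block. Idi1, which interconverts the isoprenoid building units, had the largest ratio, with 17.5, 12.7 and 26.6 CPM in OPCs and 54.2, 68.5 and 77.8 in MOL5/6. Its mean log2 ratio was 1.87 ± 0.49 (SD, n = 3 libraries). Fdft1, the squalene synthase, followed at 1.39 ± 0.91, with the wide spread coming from a low OPC value of 19.1 in ectopic vOLCs against 42.3 and 43.1 in the controls. Hmgcs1 had a ratio of 1.26 ± 0.21 and Fdps, the farnesyl diphosphate synthase, one of 1.11 ± 0.21. Fdps lay at 82.7, 70.9 and 90.7 in OPCs and at 156, 179 and 190 in MOL5/6, without overlap. Msmo1, a C4 methyl oxidase, was at 0.99 ± 0.21 and Cyp51 at 0.82 ± 0.17.

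Other steps were level or went the other way. Dhcr7, which carries out the last reduction to cholesterol, lay at 107, 104 and 125 CPM in OPCs and at 114, 110 and 145 in MOL5/6, a mean log2 ratio of 0.13 ± 0.08. Sqle, the squalene epoxidase and a rate-controlling step, lay at 53.7, 81.1 and 66.5 in OPCs and lower, at 47.3, 47.6 and 51.6, in MOL5/6. Its ratio was -0.44 ± 0.30, close to the median of all genes. Acat2, Mvd and Sqle were the 3 enzymes past the filter that were below zero in all 3 libraries, as were 59.1% of all genes, and under the TMM factors their means would be above zero. Above zero in all 3 libraries were 10 enzymes, against 23.4% of all genes. Tm7sf2, Hsd17b7 and Lss did not pass the filter, and Tm7sf2 stood at only 4.18, 6.17 and 5.77 in MOL5/6.

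**Figure D2:**
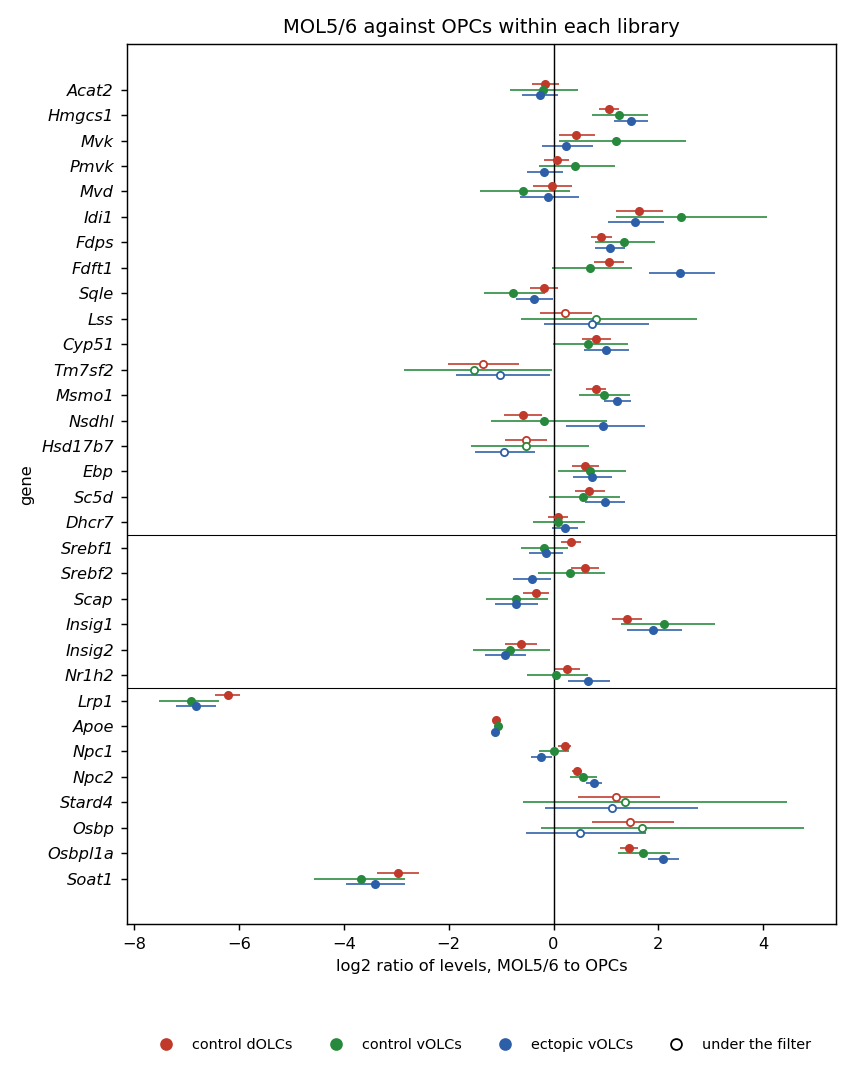
Log2 ratio of the level in MOL5/6 to that in OPCs (horizontal axis) for 32 of the 33 genes, with 1 point per library and bars for the 95% counting interval. Open points did not pass the filter, and Mylip, at 0 UMIs in 1 of the sums, is left out. Idi1, Insig1 and Osbpl1a have the highest means over the libraries, and Lrp1 has the lowest at -6.66.

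The 2 INSIG genes, which hold SCAP in the endoplasmic reticulum, had opposite orders. Insig1 lay at 42.3, 30.4 and 27.5 CPM in OPCs and at 112, 131 and 103 in MOL5/6, for a mean log2 ratio of 1.81 ± 0.36. Insig2 lay at 43.8, 53.2 and 55.7 in OPCs and at 28.4, 29.8 and 29.4 in MOL5/6, for -0.80 ± 0.15. Neither gene's values overlapped between the cell types. Under the TMM factors the mean of Insig2 would lie 0.67 higher and close to zero. For Srebf2, which encodes SREBP2, the libraries differed in sign, with log2 ratios of 0.59 (0.34 to 0.86), 0.31 (-0.30 to 0.98) and -0.41 (-0.77 to -0.04). Srebf1 differed in sign as well, at 0.34 (0.14 to 0.53), -0.19 (-0.62 to 0.27) and -0.15 (-0.46 to 0.18).

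Among the uptake and transport genes the contrasts were larger. Lrp1, a large endocytic receptor for apolipoprotein E, lay at 766, 1168 and 682 CPM in OPCs, at 106, 103 and 46.9 in COP/NFOL/MFOLa and at 10.2, 9.59 and 6.05 in MOL5/6. Its mean log2 ratio from OPCs to MOL5/6 was -6.66 ± 0.38. Soat1, which esterifies cholesterol for storage, lay at 48.8, 83.6 and 49.9 in OPCs and at 6.20, 6.51 and 4.73 in MOL5/6, for -3.35 ± 0.36. Osbpl1a, an oxysterol-binding protein gene of late endosomes, had the reverse order with 120, 93.7 and 82.4 in OPCs and 325, 307 and 351 in MOL5/6, for 1.75 ± 0.33. Of the lysosomal pair, Npc2 was higher in MOL5/6, at 463, 505 and 552 against 340, 342 and 324, while for Npc1 the libraries differed in sign, with log2 ratios of 0.21 (0.09 to 0.33), 0.00 (-0.28 to 0.30) and -0.24 (-0.44 to -0.04).

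Apoe, which encodes the main apolipoprotein of brain, was far from steady along the lineage. Its level was 11178, 13156 and 10975 CPM in OPCs, 1952, 1951 and 2115 in COP/NFOL/MFOLa and 5246, 6306 and 5083 in MOL5/6. Within the mature cells MOL5/6a stood at 6945, 7405 and 6931 and MOL2a at 3493, 2956 and 2058, with no overlap. Astrocytes and microglia are the strongest Apoe sources in brain, and their markers are therefore given. The 8 astrocyte markers summed to between 1031 and 1120 in OPCs and between 231 and 272 in MOL5/6. Most of the sum in OPCs was Slc1a2, Slc1a3 and Aldoc, while Gfap, Gja1 and Aldh1l1 were each at 2.53 or less. Of the microglial markers, C1qa, C1qc, Cx3cr1 and Tmem119 were at 0 in every OPC library. The 4 neuronal markers summed to between 1090 and 1262 in OPCs and to at most 18.3 in MOL5/6. The sum in OPCs was nearly all Meg3, at 1026, 1186 and 1114 CPM, with Snap25 at 60.9, 73.5 and 66.5 and Syt1 and Rbfox3 each at 2.53 or less. The part of these cells or of free RNA in the Apoe levels was not tested.

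Among the 6 mature clusters with at least 30 cells in each library, MOL2a had the highest mean level of most of the 18 enzymes. The share of all genes with their highest mean in MOL2a was not computed. The exceptions were Pmvk, highest in MOL5/6c, and Lss, highest in MOL5/6b. The summed enzymes stood at 1752, 2060 and 2565 CPM in MOL2a, and the log2 ratio to MOL5/6 was 0.44 (0.39 to 0.49), 0.61 (0.53 to 0.68) and 0.76 (0.69 to 0.83). Of the 16 enzymes that passed the filter, 15 were higher in MOL2a in all 3 libraries, where 28.2% of all genes were. Hsd17b7, among the 15, passed the filter only through MOL2a. Over 1.5-fold, the count was 6, against 3.13% of all genes. Sqle had the largest of these ratios at 1.13 ± 0.21 (SD, n = 3 libraries), with 87.7, 116 and 119 in MOL2a against 47.3, 47.6 and 51.6 in MOL5/6. Ebp, a sterol isomerase, was at 124, 147 and 198 against 78.3, 94.2 and 91.5, and Dhcr7 at 183, 184 and 270 against 114, 110 and 145. Values of these 3 genes did not overlap between the clusters, and the share of all genes without overlap was not computed.

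The regulators did not share that order. In MOL2a Srebf1 was lower than in MOL5/6 in all 3 libraries, with a mean log2 ratio of -0.31 ± 0.16, and so was Insig1 with -0.41 ± 0.20. Srebf2 was level at -0.00 ± 0.08. Scap was higher at 0.49 ± 0.07. Within MOL5/6 the highest mean levels of both Srebf1 and Srebf2 were in MOL5/6b, where the summed enzymes stood at only 1286, 1286 and 1260. MOL5/6a had the higher enzyme sums of 1758, 1489 and 1774 and the lowest mean level of Srebf2.

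**Figure D3:**
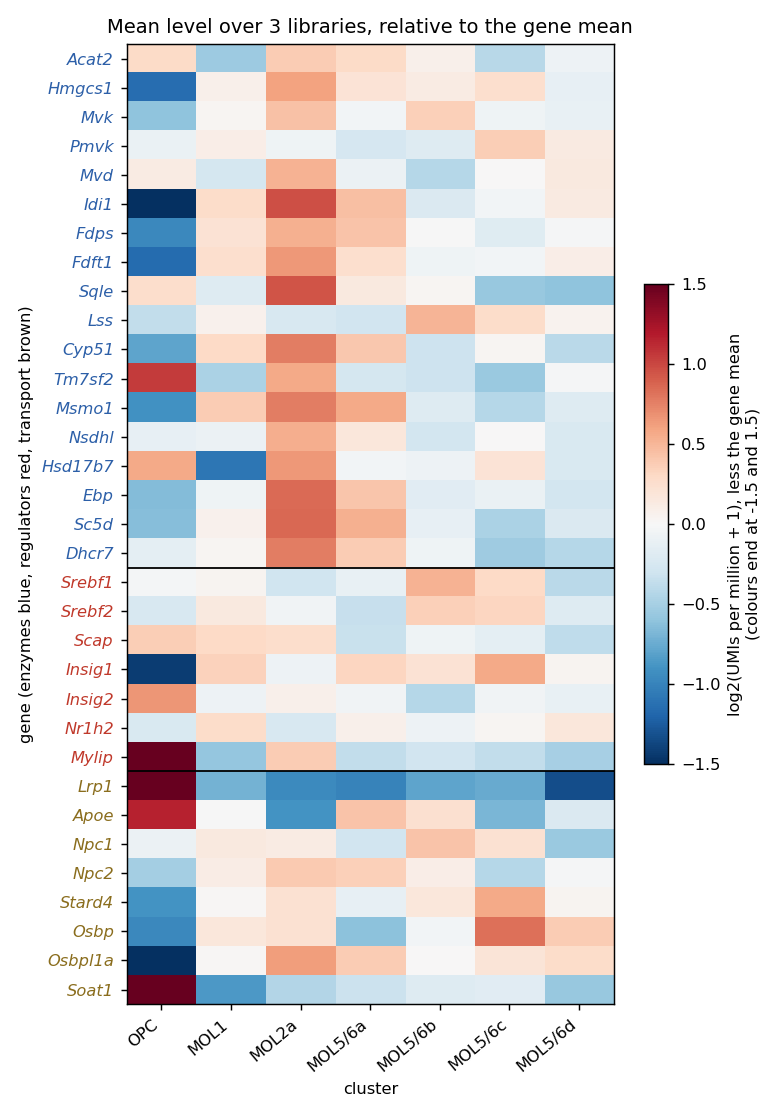
Level of each of the 33 genes (rows) in the 7 clusters with at least 30 cells in every library (columns), as log2 of the mean over 3 libraries plus 1, less the mean of that gene. Most enzyme rows are darkest red in MOL2a and blue in OPCs, whereas Lrp1, Soat1 and Apoe are red in OPCs.

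Over the 21 sums of 7 clusters and 3 libraries, each enzyme was set against the sum of the other enzymes by Pearson's r. The r of the log2 levels was 0.93 for Sc5d, 0.93 for Msmo1, 0.92 for Ebp and 0.90 for Fdps. At the low end it was 0.43 for Sqle, 0.19 for Mvd, 0.16 for Acat2, -0.04 for Hsd17b7, -0.11 for Tm7sf2, -0.15 for Lss and -0.24 for Pmvk. These values describe sums that share libraries, cells and depth. The sums mix OPCs with mature clusters, and the same r was not computed for all genes.

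The promoters of the enzymes were read for binding sequences of SREBPs and of a partner factor. RefSeq promoters on GRCm38.p6, spanning 250 bases before to 50 bases after the start of a gene, were matched by symbol for 27 of the 33 genes. The sterol regulatory element TCACNCCAC, the binding sequence of SREBPs, was searched on both strands and occurred in 1 of 15 enzyme promoters, that of Hmgcs1, and in 1.44% of the 27025 genes with a promoter. The looser TCACNCNAC occurred in 2 of 15 and in 3.15% of all genes. CCAAT, the sequence bound by NF-Y, a partner of SREBPs, occurred in 14 of 15 enzyme promoters, 5 of 7 regulator promoters and 3 of 5 transport promoters, and in 41.1% of all genes. A match describes letters and not a bound site. The windows below, read 5′ to 3′ on the strand of the gene, hold the CCAAT nearest to the start in 6 enzymes named in the results, with matches in capitals. ATTGG is CCAAT on the other strand, and the Hmgcs1 window also holds the sterol element TCACCCCAC.
Hmgcs1 (chr13:119690199-119690325, plus strand): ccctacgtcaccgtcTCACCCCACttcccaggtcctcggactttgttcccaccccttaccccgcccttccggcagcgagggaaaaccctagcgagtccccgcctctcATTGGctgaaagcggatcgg
Idi1 (chr13:8885577-8885605, plus strand): atggtccaaggtgccATTGGctggcgacc
Cyp51 (chr5:4104707-4104741, minus strand): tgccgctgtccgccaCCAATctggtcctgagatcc
Msmo1 (chr8:64733614-64733648, minus strand): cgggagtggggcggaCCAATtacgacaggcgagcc
Sc5d (chr9:42264305-42264339, minus strand): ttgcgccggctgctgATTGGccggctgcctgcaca
Dhcr7 (chr7:143830150-143830184, plus strand): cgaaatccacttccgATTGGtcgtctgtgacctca
These motifs begin 45, 14, 29, 55, 24 and 49 bases before the annotated start, in that order.

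In MOL5/6 the summed enzymes were slightly higher in ectopic vOLCs than in either control, while the genes of their main activators were lower. The log2 ratio of the enzyme sum was 0.23 (0.20 to 0.26) to control dOLCs and 0.16 (0.11 to 0.21) to control vOLCs. Between the controls, vOLCs to dOLCs, it was 0.07 (0.02 to 0.12). Both comparisons share the ectopic library and are not independent. How far 2 libraries of 1 condition would differ is not known, and the ratios are small beside a 1.5-fold difference of 0.59. Of 15 enzymes past the filter, 12 were above zero against control dOLCs and 10 against control vOLCs, beside 2429 of 5218 and 2619 of 5496 genes. Their median was 0.22 and 0.09, beside -0.03 and -0.02 for all genes.

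None of the 15 enzymes passed 1.5-fold in either direction, where 1.13% of 5218 genes passed upward and 11.5% downward against control dOLCs, and 1.46% and 12.4% of 5496 genes against control vOLCs. The highest against control dOLCs were Sc5d, Msmo1 and Idi1. Sc5d, the lathosterol oxidase, lay at 70.4, 78.1 and 102 CPM, with ratios of 0.53 (0.41 to 0.66) and 0.38 (0.17 to 0.59) to the 2 controls. Msmo1 lay at 167, 192 and 240, with 0.52 (0.44 to 0.60) and 0.32 (0.19 to 0.46). For Idi1, at 54.2, 68.5 and 77.8, the ratio to control dOLCs was 0.52 (0.38 to 0.66), but the interval to control vOLCs, 0.18 (-0.04 to 0.41), held zero. Under the TMM factors, which moved every ratio to control dOLCs up by 0.15, these 3 genes passed 1.5-fold.

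Several enzymes differed little. Hmgcs1 was nearly equal in the 3 libraries at 189, 192 and 189, with a ratio of 0.00 (-0.08 to 0.09) to control dOLCs. Acat2, Mvk, Pmvk and Mvd, which act before the isoprenoid units, had intervals that held zero against both controls. Sqle and Cyp51 did so too, with Sqle at 0.13 (-0.04 to 0.29) and Cyp51 at 0.03 (-0.10 to 0.16) to control dOLCs. Fdft1, Msmo1, Nsdhl, Sc5d and Dhcr7 had intervals above zero against both controls, with Fdft1 at 0.22 (0.10 to 0.34) and 0.56 (0.34 to 0.78). Ebp was at 0.22 (0.10 to 0.35) and -0.04 (-0.24 to 0.16). Dhcr7 lay at 114, 110 and 145, with 0.35 (0.25 to 0.45) and 0.40 (0.22 to 0.58). Fdps, at 0.29 (0.20 to 0.38) to control dOLCs, was at 0.09 (-0.05 to 0.23) to control vOLCs.

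Srebf1, Srebf2, Scap and Npc1 were over 1.5-fold lower in ectopic vOLCs than in both controls, 4 of the 25 genes that passed the filter, where 6.6% of 5211 genes were lower and 0.518% higher against both. Srebf1 lay at 120, 111 and 70.5 CPM in MOL5/6, with ratios of -0.77 (-0.89 to -0.65) and -0.66 (-0.85 to -0.46). Srebf2 lay at 78.2, 75.3 and 46.3, with -0.76 (-0.91 to -0.60) and -0.70 (-0.94 to -0.47). Scap lay at 49.0, 48.0 and 30.5, with -0.69 (-0.88 to -0.50) and -0.66 (-0.95 to -0.36). In each case the 2 controls were close together and the ectopic library alone was low. Both controls were sorted from mice of the same genotype and may share animals, so they are not independent replicates. Under the TMM factors Srebf2 and Npc1 still passed against both controls, whereas Scap came to -0.54 and -0.56 and Srebf1 to -0.62 and -0.56, and the size factors gave the same calls. On GRCm38 the gene of Srebf1 spans chr11:60199089-60222581, that of Srebf2 chr15:82147181-82205379 and that of Scap chr9:110333288-110384950. Exons of Srebf1 overlap Rai1, and those of Scap overlap 5830462I19Rik, each on the opposite strand, and Srebf1 also overlaps Mir6922 on its own strand.

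Npc1, which exports cholesterol from the lysosome, had the lowest ratio of the genes past the filter. It lay at 306, 285 and 166, with -0.88 (-0.96 to -0.80) and -0.78 (-0.90 to -0.66). Its partner Npc2 went the other way by a smaller amount, at 463, 505 and 552, with 0.25 (0.20 to 0.30) and 0.13 (0.05 to 0.21). Lrp1, Osbp and Stard4, all under the filter, had 64, 100 and 95 UMIs in the ectopic library. Lrp1 had log2 ratios of -0.76 (-1.20 to -0.33) and -0.66 (-1.33 to 0.03), Osbp of -0.83 (-1.18 to -0.49) and -0.80 (-1.31 to -0.27), and Stard4 of -0.64 (-1.01 to -0.29) and -0.53 (-1.09 to 0.05), so that for Lrp1 and Stard4 the interval to control vOLCs held zero. Mylip had 6, 0 and 3 UMIs and gives no ratio.

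The other regulators were closer to the controls. Insig1 lay at 112, 131 and 103, with -0.12 (-0.23 to -0.01) and -0.35 (-0.52 to -0.18), and its sign against control dOLCs turned under the TMM factors. Insig2, at 28.4, 29.8 and 29.4, had 0.05 (-0.16 to 0.27) and -0.02 (-0.37 to 0.34). Nr1h2, a sterol-sensing nuclear receptor, had intervals that held zero. Apoe lay at 5246, 6306 and 5083, with -0.05 (-0.06 to -0.03) to control dOLCs, a sign that also turned under the TMM factors, and -0.31 (-0.34 to -0.29) to control vOLCs.

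**Figure D4:**
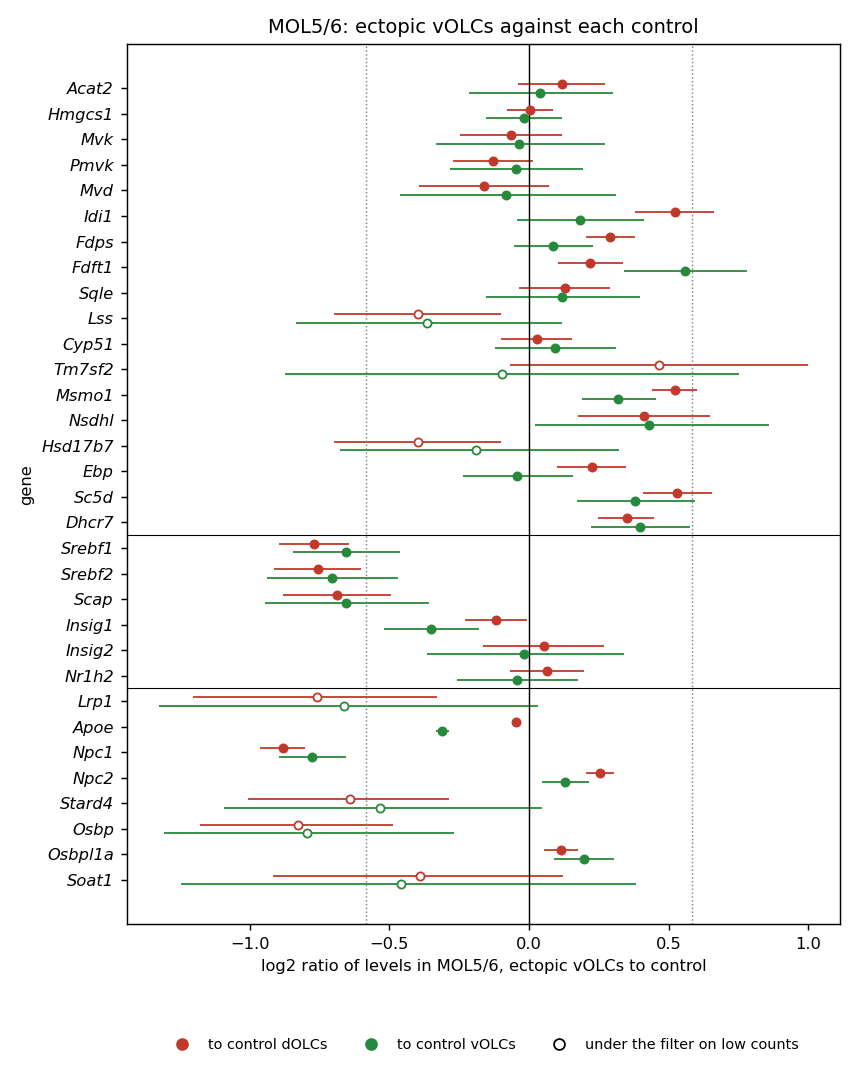
Log2 ratio of the level in MOL5/6 of ectopic vOLCs to that of control dOLCs (red) and control vOLCs (green) for 32 of the 33 genes, with bars for the 95% counting interval and dotted lines at 1.5-fold. Srebf1, Srebf2, Scap and Npc1 lie left of the dotted line against both controls, and no enzyme past the filter lies outside the lines.

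Longer transcripts tended to have lower ratios in the ectopic library, and the low regulators were among the longer ones. Across 5082 genes Spearman's rho between the ratio to control dOLCs and the length of the longest transcript was -0.53, against -0.10 for control vOLCs to control dOLCs. Genes are not independent replicates and no test is given. With the median of genes in the same 1 of 10 length bins taken off, a step added for the single values after the data were seen, Srebf1 remained at -0.66 and was the only 1 of the 4 still past 1.5-fold. Scap came to -0.58, Npc1 to -0.51 and Srebf2 to -0.50. The median of the enzymes went from 0.22 to 0.26, and Sc5d, with a longest transcript of 4787 bases, came to 0.79.

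**Figure D5:**
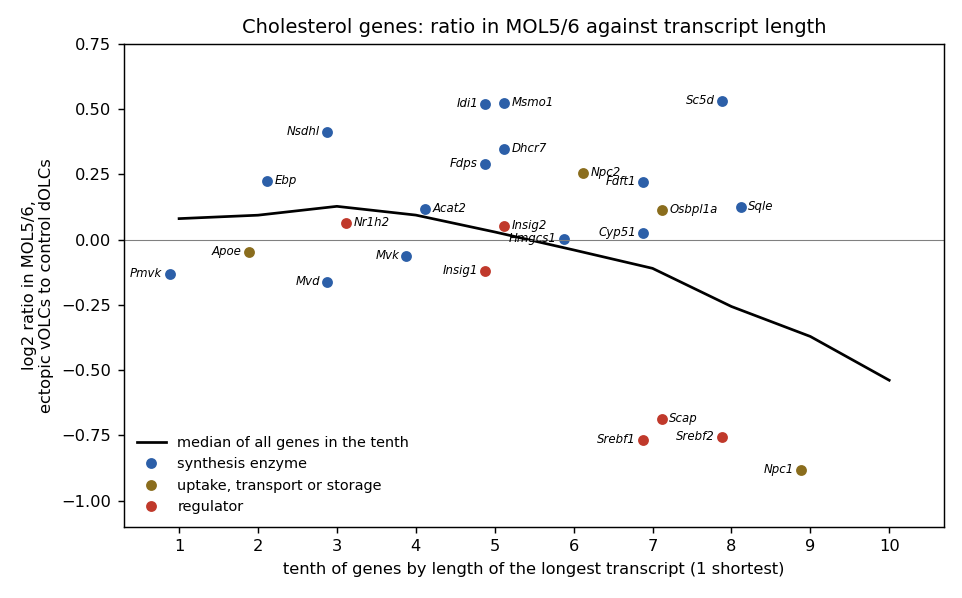
Log2 ratio in MOL5/6 of ectopic vOLCs to control dOLCs (vertical axis) for the 25 genes past the filter, placed by transcript length in 10 bins of 5082 genes (horizontal axis), with a line for the median of all genes in each bin. The line goes from 0.08 in the shortest bin to -0.54 in the longest, and Srebf1, Scap, Srebf2 and Npc1 lie below it while Sc5d lies above it.

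The MOL5/6 class was made of different clusters in the 3 libraries. MOL5/6a and MOL5/6d held 900 and 837 of the 1842 ectopic cells, whereas MOL5/6b held 1947 of the 3777 control dOLCs. Within single clusters the enzyme difference to control dOLCs was smaller. The log2 ratio of the enzyme sum was 0.01 (-0.05 to 0.08) in MOL5/6a, -0.03 (-0.25 to 0.19) in MOL5/6b, 0.02 (-0.13 to 0.17) in MOL5/6c and 0.11 (0.06 to 0.17) in MOL5/6d. To control vOLCs it was 0.25 (0.18 to 0.33) in MOL5/6a, where 4 enzymes passed 1.5-fold upward against 1.7% of genes, and 0.44 (0.27 to 0.62) in MOL5/6d, the latter resting on 35 control vOLCs. In MOL5/6b it was -0.03 (-0.27 to 0.20) and in MOL5/6c -0.09 (-0.29 to 0.11), with intervals that held zero. Within MOL5/6a and within MOL5/6d no gene of the 33 passed 1.5-fold against both controls, where 2.65% and 1.57% of genes were lower and 0.531% and 0.641% higher.

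Srebf1, Srebf2, Scap and Npc1 kept their sign against control dOLCs in part of these clusters. Srebf1 lay at 108, 95.3 and 80.0 in MOL5/6a and at 92.0, 78.6 and 59.4 in MOL5/6d, with log2 ratios to control dOLCs of -0.43 (-0.72 to -0.14) and -0.63 (-0.85 to -0.41). In MOL5/6b and MOL5/6c its intervals held zero, on 24 and 36 ectopic UMIs. Npc1 was at -0.50 (-0.69 to -0.31) in MOL5/6a and -0.49 (-0.64 to -0.35) in MOL5/6d. Srebf2 was at -0.73 (-1.11 to -0.34) in MOL5/6a, and at -0.21 (-0.48 to 0.06) in MOL5/6d. Scap was at 0.06 (-0.42 to 0.57) in MOL5/6a and at -0.52 (-0.87 to -0.18) in MOL5/6d. In MOL5/6b it was the 1 gene of 21 past the filter that was over 1.5-fold lower than in both controls, where 14.8% of genes were, on only 4 ectopic UMIs and with intervals that held zero.

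In MOL2a the summed enzymes of ectopic vOLCs were higher than those of both controls. The ratio of the enzyme sum was 0.55 (0.47 to 0.63) to control dOLCs and 0.32 (0.23 to 0.41) to control vOLCs, on 498, 179 and 115 cells. Mvd, Fdft1, Nsdhl and Sc5d, 4 of 16 enzymes past the filter, were over 1.5-fold higher than in both controls, where 1.76% of 4375 genes were. Against control dOLCs alone the count was 9 of 16, where 4.96% of genes were higher, and against control vOLCs alone 4, where 3.26% were. Fdft1 lay at 108, 89.4 and 176 CPM, with ratios of 0.71 (0.38 to 1.04) and 0.98 (0.59 to 1.37). Sc5d lay at 114, 118 and 196, with 0.79 (0.47 to 1.10) and 0.74 (0.39 to 1.09). For Mvd and Nsdhl the intervals to control vOLCs held zero. Srebf1 and Npc1, 2 of 26 genes past the filter, were over 1.5-fold lower than in both controls, a share below the 10.5% of all genes, with Srebf1 at 110, 86.0 and 52.3. In MOL2 as a whole, with MOL2b added, the sums were 1661, 2022 and 2017, and the ectopic library differed from control dOLCs by 0.28 (0.22 to 0.34) and from control vOLCs by -0.00 (-0.08 to 0.07). Srebf1, Srebf2, Scap, Npc1 and Apoe were over 1.5-fold lower in MOL2 than in both controls, 5 of 26 genes, where 6.01% of genes were. MOL2b held 235, 6 and 106 cells.

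Apoe, which was within 1.5-fold of both controls in ectopic MOL5/6, was lower in ectopic MOL2. It lay at 2884, 2957 and 1899 CPM there, with log2 ratios of -0.60 (-0.66 to -0.54) and -0.64 (-0.71 to -0.57). MOL2 mixes MOL2a and MOL2b in different shares in the 3 libraries. Within MOL2a Apoe lay at 3493, 2956 and 2058, with -0.76 (-0.85 to -0.68) and -0.52 (-0.61 to -0.43), so that it did not pass 1.5-fold against control vOLCs. Srebf2 lay at 75.9, 72.6 and 41.2 in MOL2, with -0.88 (-1.30 to -0.49) and -0.82 (-1.30 to -0.34), and within MOL2a it too did not pass against control vOLCs, at -0.56 (-1.19 to 0.04). Npc1 lay at 294, 315 and 184 in MOL2. Npc2 lay at 535, 577 and 582, with 0.12 (0.01 to 0.24) and 0.01 (-0.13 to 0.16), and so was level with control vOLCs. In MOL1, on 242, 34 and 93 cells, the enzyme sums were 1327, 1494 and 1499, and the ectopic library differed from control dOLCs by 0.18 (0.04 to 0.31) and from control vOLCs by 0.01 (-0.21 to 0.22).

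In OPCs the enzyme sum was the same in the 3 libraries within counting error. Its log2 ratio of ectopic vOLCs was 0.01 (-0.09 to 0.12) to control dOLCs and 0.02 (-0.16 to 0.20) to control vOLCs. Of 24 genes past the filter none was over 1.5-fold higher than in control dOLCs and 2, Fdft1 and Insig1, were lower, where 5.34% of 6110 genes were higher and 5.79% lower. Against control vOLCs 5 of 21 genes were lower, namely Srebf1, Scap, Nr1h2, Lrp1 and Soat1, where 9.77% of genes were, and none higher, where 18% were. Against both controls together no gene of the 21 that could be compared passed, where 2.86% of genes were higher and 1.69% lower. Fdft1 lay at 42.3, 43.1 and 19.1 CPM on 111, 17 and 23 UMIs, with -1.14 (-1.86 to -0.49) to control dOLCs. With 23 UMIs in 330 ectopic cells, Fdft1 passed the filter only through control dOLCs, where it was higher. Insig1 lay at 42.3, 30.4 and 27.5, with -0.62 (-1.23 to -0.05). Osbpl1a followed with -0.54 (-0.88 to -0.21). At the other end were Insig2 with 0.35 (-0.11 to 0.79), Srebf2 with 0.25 (-0.18 to 0.67) and Acat2 with 0.22 (-0.19 to 0.62), whose intervals held zero.

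Srebf2, low in ectopic MOL5/6, thus lay at 51.8, 60.8 and 61.6 in OPCs, highest in the ectopic library. Npc1 was low in ectopic OPCs as well, at 265, 284 and 196, with -0.43 (-0.65 to -0.22) and -0.53 (-0.86 to -0.19). Lrp1 was highest in control vOLCs, at 766, 1168 and 682, so that its ratio was -0.17 (-0.29 to -0.05) to control dOLCs and -0.78 (-0.94 to -0.61) to control vOLCs. Control vOLCs to control dOLCs gave 0.61 (0.46 to 0.76) for Lrp1. With Soat1 and Sqle it was 1 of 3 genes over 1.5-fold higher in that comparison, where 10.8% of 5863 genes were, although the interval of Sqle, 0.59 (-0.01 to 1.16), held zero, and none was lower, where 12.1% were. In MOL5/6 none of the 24 genes past the filter passed 1.5-fold between the controls, where 2.56% of genes were higher in vOLCs and 0.731% lower.

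Of 34 further genes of sterol handling and transport outside the 33, 16 could be compared in MOL5/6 against both controls. None was over 1.5-fold higher than in both, and Abca2 and Gramd1b were lower, beside 6.6% of all genes lower and 0.518% higher. Abca2, a transporter of late endosomes in oligodendrocytes, lay at 746, 696 and 393 CPM, with -0.93 (-0.98 to -0.87) and -0.83 (-0.90 to -0.75). Gramd1b, which moves sterol between the plasma membrane and the endoplasmic reticulum, lay at 38.1, 29.1 and 17.2. It passed the filter only through the controls, where it was higher. Of 10 genes of fatty acid synthesis, whose promoters SREBP1 also binds, 9 could be compared and Fasn and Scd2 were lower than in both controls, again beside 6.6% of all genes. Fasn, the fatty acid synthase, lay at 181, 141 and 93.4, and Scd2, a desaturase, at 3698, 3253 and 1873. The median ratio to control dOLCs was -0.53 over these 9 genes, against 0.22 over the 15 cholesterol enzymes. The 9 have a median longest transcript of 4832 bases, and with the median of their length bins taken off the 2 medians came to -0.16 and 0.26.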

How the data were processed

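Neocortical SOX10+ cells were sorted and sequenced with the 10x Chromium 3′ v2 chemistry. The authors deposited raw UMI counts per gene and cell, and an annotation of kept cells with library and cluster; Cell Ranger 2.1.1, Seurat 3 and mm10 are named in the submitters' processing notes. Their filter kept 9291 of 10081 barcodes, and no doublets were removed here. The 4 P0 samples were not analysed here.

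UMIs were summed per cluster and library and scaled to 1000000. Log2 ratios carry conditional exact binomial 95% intervals, which cover counting error only, and the calculation was tested on simulated counts. A gene counted as higher or lower past 1.5-fold. No test between conditions was made, and replicate spread is unknown. The genes, lists and comparisons were chosen with earlier results of these data known. Named were a fixed set of 14 genes, the 3 genes past the filter at either end of the order of ectopic to control dOLC ratios, for MOL5/6 and for OPCs, the 4 at either end of the order of MOL5/6 to OPC ratios, and genes of other lists only where past 1.5-fold against both controls; other names were chosen after their values were seen. Gene positions and transcript lengths were those of GENCODE M21 on GRCm38. Exons of Hmgcs1, Idi1, Fdft1, Lss, Cyp51, Srebf1, Scap, Npc1 and Osbpl1a overlap a gene on the opposite strand, and those of Fdps, Tm7sf2 and Srebf1 a gene on the same strand, so their counts are less certain. Alternatives were TMM factors (edgeR 4.0.16), size factors (DESeq2 1.42.0), the mean over cells, thinning to 1000 UMIs per cell, leaving out the 6% of cells with the highest Scrublet scores (scanpy 1.11.5), a mitochondrial limit of 10%, other folds and filters, and the length correction.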

Additional observations from a re-analysis of the deposited data

Results flagged for a closer look

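For 3 genes the ratio of ectopic vOLCs to control dOLCs had counting intervals on opposite sides of zero in OPCs and in MOL5/6. Fdft1 was at -1.14 (-1.86 to -0.49) in OPCs and at 0.22 (0.10 to 0.34) in MOL5/6. Nsdhl, under the filter in OPCs with 17 UMIs in the ectopic library, was at -1.13 (-1.97 to -0.36) and at 0.41 (0.17 to 0.65). Osbpl1a was at -0.54 (-0.88 to -0.21) and at 0.12 (0.05 to 0.18). Each rests on 1 library per condition, and the difference between the cell types was not tested.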

How the results depend on the processing

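No paired analysis was possible because a condition had only 1 library. Of 34 alternative values of the main results 20 stayed within the counting interval, the spread over libraries or 1.5 times the count, 14 moved outside and none reversed. A reversal could not be recorded for the OPC ratio, whose interval held zero, or for the count of genes. In MOL5/6 the enzyme ratio to control dOLCs became 0.37 with TMM factors, 0.39 with size factors, 0.28 with the mean over cells, 0.27 with thinned cells and 0.18 without Msmo1, and the ratio to control vOLCs became 0.26 and 0.28 with the 2 scalings. These scalings moved every MOL5/6 ratio to control dOLCs by 0.15 and 0.16. In OPCs the ratio became 0.13 with thinned cells and -0.002 with size factors. From OPCs to MOL5/6 it became 1.29 with TMM factors and 1.28 with size factors. The count of 4 genes past 1.5-fold, all lower, became 9 at 1.25-fold (5 higher and 4 lower, all genes 7.95% and 23.3%), 0 at 2-fold (all genes 0.192% and 1.95%), 7 of 33 without the filter (all lower, all genes 5.68% and 24.3%) and 2 with the length correction (1 higher and 1 lower, all genes 2.46% and 3.35%), and with either scaling it was 6, of which 3 were higher and 3 lower (all genes 3.2% and 7.19% with TMM factors). Among single genes, Insig1 turned to 0.028 and 0.042 and Apoe to 0.101 and 0.115 with the 2 scalings, each against control dOLCs. Intervals cover counting error only, so small ratios between libraries cannot be told apart from library effects.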
